A study of Homo sapiens with 6 samples.

Results

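The genes described here are 36 enzymes of nucleotide and one-carbon synthesis, taken by symbol from a table of 15024 genes. All 36 were in the table, and they were read as 3 branches: 14 purine genes, 14 pyrimidine and deoxynucleotide genes, and 8 folate and serine genes. The 6 RNA-seq libraries came from MDA-MB-231 cells, a long-established line from a breast cancer that lacks estrogen receptor, progesterone receptor and HER2 amplification, made null for MLL3. KMT2C encodes MLL3, an enzyme that methylates histone H3 at enhancers. Every library came from cells kept for 14 days in 10 μM forskolin, which activates adenylyl cyclase, raises cAMP and so activates protein kinase A. The cells were sorted by the amount of integrin beta-4 (CD104) on their surface into CD44+CD104high cells (called CD104high, n = 3) and CD44+CD104-/low cells (called CD104low, n = 3), which the study's design calls hybrid and mesenchymal states. Both populations carry the same MLL3 loss and the same treatment, so neither the effect of MLL3 nor that of forskolin was compared. The sources used here do not say how MLL3 was removed or whether the cells are 1 clone.

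Purines are built stepwise on phosphoribosyl pyrophosphate until the ring is complete as inosine monophosphate, which is then turned into adenine or guanine nucleotides. Pyrimidines are built as a free ring first and joined to the sugar afterwards. The purine route and the making of thymidylate draw on folate that carries single carbon units, most of which come from serine in the mitochondrion. Proliferating cells use these routes to supply RNA and DNA synthesis, and several of the enzymes are targets of antiproliferative drugs.

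The table's values are read counts that the authors scaled by 1 size factor per library, and between 49791498 and 60069719 recovered reads per library fell on the listed genes. The sort was visible in ITGB4, the gene of CD104, which averaged 16463 ± 2616 in CD104high and 1699 ± 503 in CD104low, while CD44 averaged 25592 ± 3169 and 24651 ± 1232 (each SD over 3 libraries). KMT2C itself gave 3816 ± 221 and 2507 ± 371 (SD, n = 3 each) over the whole gene, which does not check the deletion. None of 5 leukocyte markers had a row in the table, and of 5 endothelial markers only KDR passed the filter on low values, with 42.2 to 94.3 scaled reads in every library. Of 5 fibroblast markers, 3 passed that filter, and their summed level was 3259 to 4016 in CD104high and 1906 to 2276 in CD104low, while PDGFRA and DCN stayed under it. The line itself is mesenchymal, and the part of these genes in the results below was not tested.

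Most of the 36 enzymes were lower in CD104high cells. In a limma fit over all 14420 genes that reached 10 scaled reads in 3 or more libraries, 26 members fell, 1 rose and 9 did not pass (Benjamini-Hochberg adjusted p under 0.05). Over all genes tested, 43.4% changed, with 21.6% of all genes falling and 21.8% rising. The members' median log2 fold change was -0.33, where the median over all tested genes was 0.02. Signed values below are log2 fold changes, CD104high minus CD104low. The changes were modest in size: 13 members fell by 0.5 or more on the log2 scale, as did 8.41% of all genes, and ALDH1L2 was the member that rose. In 25 members every CD104high library lay below every CD104low library, which was so for 26.9% of all genes, and in ALDH1L2 every CD104high library lay above, as in 27.4% of all genes. In bulk samples a lower level per cell cannot be told apart from fewer cells expressing a gene. The labels call the replicates biological without saying whether each was a separate culture or sort, so the p-values cover the spread among these libraries. Without replicate 1 of CD104low 17 members fell and 0 rose, and the share of all genes that fell was then 14.0%. In the authors' deposited table, 25 members were lower and 1 higher, against 22.6% lower and 23.1% higher over the genes with an adjusted p there. The call that differed was GART, at an adjusted p of 0.0606 in the authors' deposited table.

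**Figure D1:**
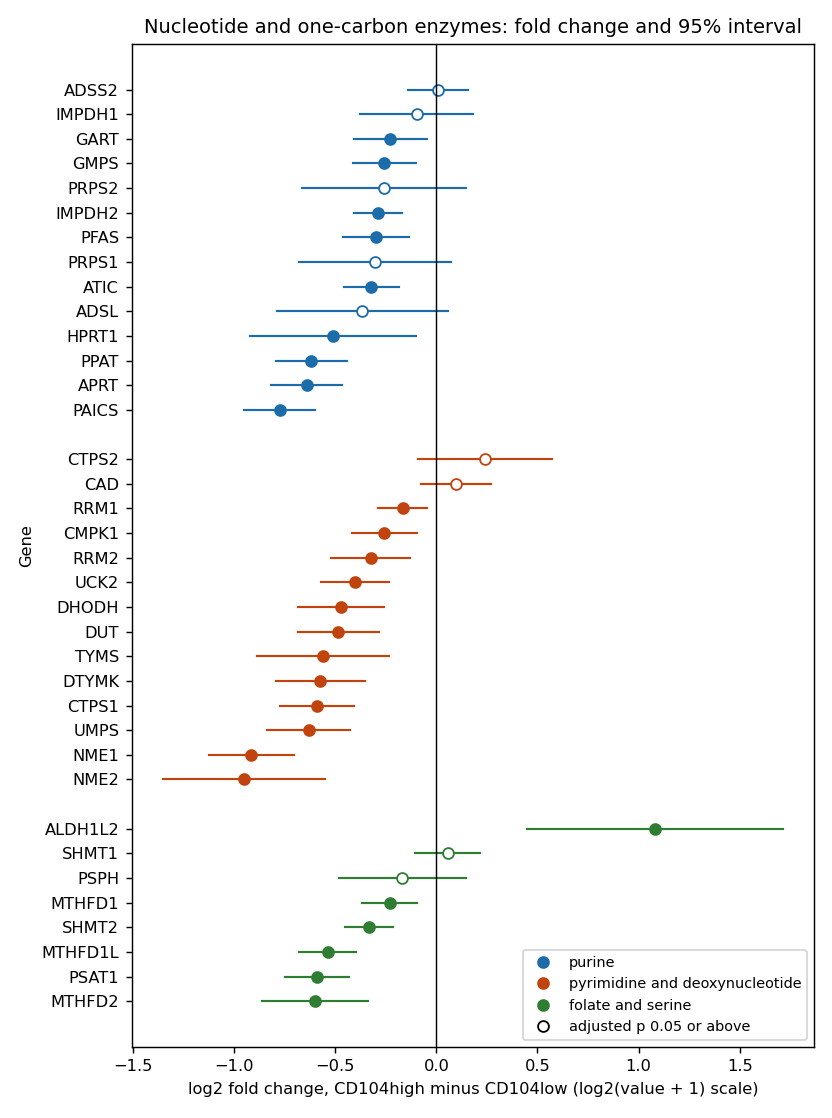
Log2 fold change of each enzyme, CD104high minus CD104low on the log2(value + 1) scale, with its 95% interval from the limma fit, grouped by branch. Filled points passed the adjusted threshold of 0.05 and open points did not; 26 filled points lie left of 0, and ALDH1L2 is the filled point to the right, at 1.08.

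The branches shared this direction to different degrees, where 21.6% of all genes tested fell and 21.8% rose. Of the 14 purine genes 9 fell and 0 rose in limma, with a median log2 fold change of -0.30. Of the 14 pyrimidine and deoxynucleotide genes 12 fell and 0 rose, with a median of -0.48. Of the 8 folate and serine genes 5 fell and 1 rose, with a median of -0.28. Summed over the branch, the pyrimidine genes held 67476 to 72342 scaled reads in the CD104high libraries and 82431 to 92365 in the CD104low libraries. The folate and serine genes held 32456 to 33667 and 40377 to 43593, and the purine genes 76563 to 79802 and 96836 to 110025. In each branch the sums of the populations did not overlap. The differences between branches were not tested. ALDH1L2 was the only member higher at an unadjusted p under 0.05, and the only one that rose in edgeR (adjusted p = 0.0195) and DESeq2 (0.00526).

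**Figure D2:**
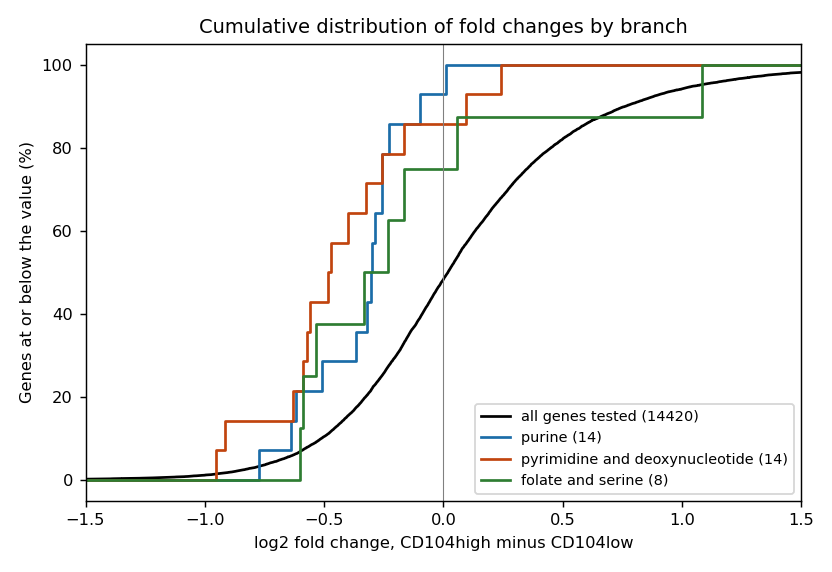
Cumulative share of genes (%) at or below each log2 fold change, for all 14420 genes tested (black) and the members of each branch (colours, with their number). The branch medians of -0.30, -0.48 and -0.28 lie left of the median of all genes at 0.02.

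The first committed step of purine synthesis is catalysed by PPAT, the amidophosphoribosyltransferase. PPAT gave 2459, 2457 and 2123 scaled reads in CD104high and 3662, 3489 and 3633 in CD104low. The populations did not overlap, and the log2 fold change was -0.62 ± 0.08 (SE; adjusted p = 0.000633 in limma). PAICS, a bifunctional enzyme of the middle steps, had the largest fall of the branch, from 30757, 25907 and 29870 in CD104low to 16612, 17661 and 16231 in CD104high. Its log2 fold change was -0.77 ± 0.08 (SE; adjusted p = 0.000309 in limma), so that PAICS was 1.71-fold lower. Correcting for transcript length and GC content gave -0.26 for PPAT (adjusted p = 0.0345) and -0.82 for PAICS (adjusted p = 0.000257).

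PPAT and PAICS lie head to head on chromosome 4 and are read in opposite directions, PPAT (chr4:56393362-56435615, minus strand) and PAICS (chr4:56435741-56464579, plus strand; GENCODE 29 on GRCh38). The stretch between their RefSeq starts is shown because it is what the 2 genes, both lower in CD104high, have in common upstream. It has 136 bases with a GC content of 75.0%, and is given on the plus strand of GRCh38.p14, in lower case throughout because no motif searched here was found in it.
chr4:56435616-56435751: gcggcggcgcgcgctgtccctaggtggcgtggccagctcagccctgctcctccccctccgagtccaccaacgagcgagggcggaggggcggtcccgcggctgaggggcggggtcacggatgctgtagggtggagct

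Along the rest of the route to inosine monophosphate, ATIC, which closes the ring, fell from 5952, 5737 and 5779 to 4902, 4531 and 4558 (log2 fold change -0.32 ± 0.06 SE, adjusted p = 0.00344 in limma). PFAS, the formylglycinamidine synthase, fell by 0.30, and GART, a trifunctional enzyme, by 0.23. For PFAS the length and GC correction gave -0.56, and leaving out replicate 1 of CD104low an adjusted p of 0.0507. The call of GART (adjusted p = 0.0454 in limma) ended in 8 of 17 alternatives, among them leaving out replicate 1 or 2 of CD104high (0.0782 and 0.15) or replicate 1 or 3 of CD104low (0.165 and 0.0951). ADSL, the adenylosuccinate lyase, was at -0.37 with an interval of -0.79 to 0.06 and did not pass. ADSL read 209, 184 and 254 in CD104high and 341, 237 and 259 in CD104low, so its libraries overlapped, and it passed with quantile normalization (-0.56, adjusted p = 0.0407).

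Beyond inosine monophosphate 2 of 4 members fell, IMPDH2 and GMPS, both of the guanine arm; the arms were not tested against each other. IMPDH2, the inducible inosine monophosphate dehydrogenase that commits the pool to guanine nucleotides, read 14264, 14330 and 14307 in CD104high and 17326, 17116 and 17963 in CD104low. The CD104high libraries were nearly equal and all below CD104low (log2 fold change -0.29 ± 0.05 SE, adjusted p = 0.00312 in limma). GMPS, the guanosine monophosphate synthase, fell by 0.26, but missed the threshold when replicate 2 of CD104high (0.061) or replicate 1 or 3 of CD104low (0.0615 and 0.06) was left out. ADSS2, the adenylosuccinate synthase of the adenine arm, was at 5722 ± 267 and 5689 ± 276 (SD, n = 3 each), and the interval of its log2 fold change ran from -0.14 to 0.16. The length and GC correction gave 0.18 for ADSS2 (adjusted p = 0.0418). ADSS1, its paralog outside the 36 genes and named after its value was seen, rose by 1.70 (adjusted p = 0.00228 in limma) from a far lower level, 24.2 ± 5.38 in CD104low against 81.5 ± 19.8 in CD104high (SD, n = 3 each). IMPDH1, the other dehydrogenase of the guanine arm, was at -0.10 with an interval of -0.38 to 0.18 and did not pass.

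Salvage enzymes return free bases to nucleotides. APRT (chr16:88809339-88811944, minus strand), which salvages adenine, read 5142, 5189 and 4580 in CD104high and 8236, 7156 and 7854 in CD104low. It fell by 0.64 on the log2 scale (SE 0.08, adjusted p = 0.000561 in limma), with no overlap. HPRT1, which salvages hypoxanthine and guanine, fell by 0.51 (adjusted p = 0.048 in limma), but its libraries overlapped: 1799, 1587 and 2206 in CD104high against 2654, 2039 and 3360 in CD104low. Its call ended in 6 of 17 alternatives. They were limma without the trend (0.11), the correction for length and GC (which gave -0.15 and 0.461), and leaving out replicate 1 or 2 of CD104high (0.123 and 0.14) or replicate 1 or 3 of CD104low (0.126 and 0.142). PRPS1 and PRPS2, the synthetases that make phosphoribosyl pyrophosphate for all these routes, were at -0.30 and -0.26 and did not pass. They passed without replicate 2 of CD104low, at -0.46 (adjusted p = 0.0361) and -0.44 (0.0461). Both also passed with the replicate number as a further term in limma (adjusted p = 0.00296 and 0.00512).

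CAD and CTPS2 were the pyrimidine and deoxynucleotide genes that did not pass. CAD is the trifunctional protein that performs the first steps of pyrimidine synthesis. It read 11674, 9642 and 10296 in CD104high and 9775, 10060 and 9651 in CD104low. The libraries overlapped, and the log2 fold change of 0.10 had an interval of -0.08 to 0.27 (adjusted p = 0.338 in limma). The sign turned with the length and GC correction, which gave -0.25 (adjusted p = 0.0259), so no direction is given for CAD. DHODH, the mitochondrial dihydroorotate dehydrogenase of the next step, fell from 1068 ± 54.8 to 770 ± 53.5 (SD, n = 3 each; log2 fold change -0.47, adjusted p = 0.00421 in limma). UMPS, which completes uridine monophosphate, read 1737, 1844 and 1821 in CD104high and 3074, 2469 and 2852 in CD104low. UMPS fell by 0.63 on the log2 scale (SE 0.09, adjusted p = 0.00106 in limma), or 1.55-fold, with no overlap.

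CTP synthases convert uridine to cytidine triphosphate, and there are 2 of them. CTPS1 (chr1:40979335-41012565, plus strand) read 5487, 4905 and 4763 in CD104high and 7632, 7021 and 8165 in CD104low, and fell by 0.59 on the log2 scale (SE 0.08, adjusted p = 0.000853 in limma). CTPS2 read 914, 778 and 968 in CD104high and 720, 636 and 912 in CD104low. Its libraries overlapped and its log2 fold change of 0.24, with an interval of -0.09 to 0.57, did not pass. CTPS2 passed with the replicate number as a further term in limma (adjusted p = 0.0412).

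All 5 genes that make or guard deoxynucleotides fell in the main fit, where 21.6% of all genes tested fell. TYMS, the thymidylate synthase, read 3138, 3283 and 4593 in CD104high and 5437, 4754 and 5868 in CD104low (log2 fold change -0.56 ± 0.14 SE, adjusted p = 0.0134 in limma). Replicate 3 of CD104high was well above the other two but still below every CD104low library. DTYMK, the thymidylate kinase, read 6307, 5876 and 6764 in CD104high and 10167, 8125 and 9988 in CD104low, and fell by 0.57 (SE 0.10, adjusted p = 0.00208 in limma). DUT, which removes dUTP and so keeps uracil out of DNA, fell by 0.48 (adjusted p = 0.003 in limma), or 0.32 with the length and GC correction. RRM2, the regulatory subunit of ribonucleotide reductase made in S phase, read 12903, 11304 and 12964 in CD104high and 16728, 13969 and 15912 in CD104low, giving a log2 fold change of -0.33 ± 0.09 (SE; adjusted p = 0.0151 in limma). RRM1, the catalytic subunit, differed least of the 5, at -0.17. The call of RRM1 (adjusted p = 0.0334 in limma) ended in 9 of 17 alternatives, including the correction for length and GC (-0.07, adjusted p = 0.309). Without replicate 1, 2 or 3 of CD104high its adjusted p was 0.108, 0.0811 or 0.0509, and without replicate 1 or 3 of CD104low 0.0873 or 0.118. RRM2 missed the threshold without replicate 2 of CD104high (0.052) and replicate 1 or 3 of CD104low (0.0671 and 0.0501). TYMS missed it without replicate 1 of either population (0.0543 for CD104high and 0.0537 for CD104low).

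Nucleotide kinases raise monophosphates to triphosphates, and the largest falls of all 36 genes were among them. NME1, a nucleoside diphosphate kinase, read 1486, 1508 and 1558 in CD104high and 3087, 2495 and 3039 in CD104low. NME1 was 1.89-fold lower (log2 fold change -0.91 ± 0.09 SE, adjusted p = 0.000321 in limma). NME1 lies at chr17:51153536-51162428 and NME2 next to it at chr17:51165435-51171747, both on the plus strand (GENCODE 29 on GRCh38). NME2 read 168, 203 and 261 in CD104high and 430, 365 and 411 in CD104low (log2 fold change -0.95 ± 0.18 SE, adjusted p = 0.00318 in limma). NME1 and NME2 are close copies whose reads can be divided between them, so the value of either alone is uncertain, though both fell. Only 1.44% of all tested genes had a lower log2 fold change than NME2. UCK2, the uridine and cytidine kinase of salvage, fell by 0.40. CMPK1, the kinase of cytidine and uridine monophosphate, fell by 0.26, but the length and GC correction gave 0.03 (adjusted p = 0.703). CMPK1 also missed the threshold when replicate 1 or 2 of CD104high (0.0802 and 0.0536) or replicate 1 or 3 of CD104low (0.0781 and 0.0628) was left out, and in limma with no trend (0.0523).

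**Figure D3:**
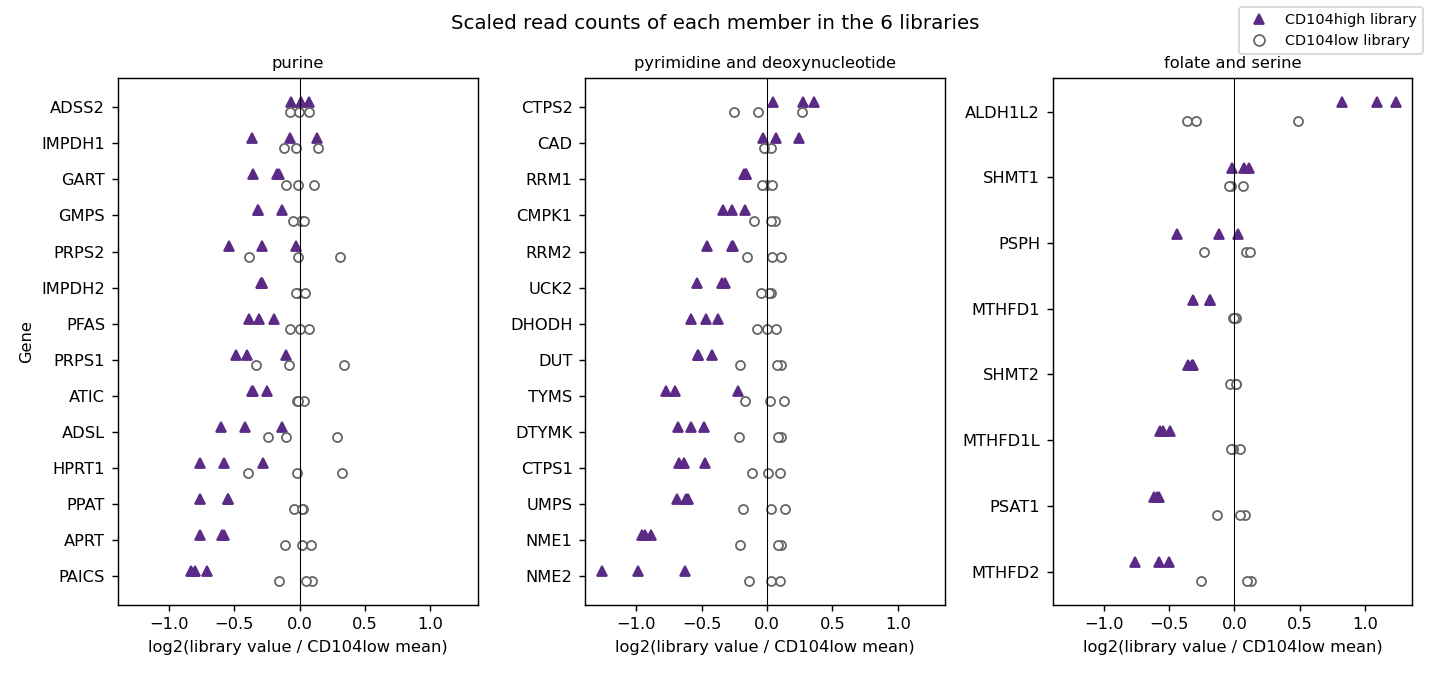
Each member's scaled read count in the 6 libraries, as log2 of the value over the mean of the CD104low libraries, in 3 panels by branch. Triangles are CD104high and open circles CD104low libraries; for NME1, PAICS, PSAT1 and MTHFD1L the groups are well apart, whereas for HPRT1, PRPS1 and PRPS2 the libraries of each group are widely spread and overlap.

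Of the 4 mitochondrial folate enzymes, the 3 that turn serine into formate for export fell. MTHFD2, the mitochondrial methylenetetrahydrofolate dehydrogenase and cyclohydrolase, read 2171, 1915 and 2286 in CD104high and 3534, 2710 and 3462 in CD104low (log2 fold change -0.60 ± 0.11 SE, adjusted p = 0.0037 in limma). MTHFD1L, the formate-releasing synthetase, had tight groups at 2673, 2536 and 2583 against 3881, 3730 and 3690 (log2 fold change -0.54 ± 0.06 SE, adjusted p = 0.000492 in limma). SHMT2, the mitochondrial serine hydroxymethyltransferase, read 9029, 8839 and 9079 in CD104high and 11437, 11071 and 11439 in CD104low (log2 fold change -0.33 ± 0.05 SE, adjusted p = 0.00169 in limma). None of these groups overlapped.

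ALDH1L2 (chr12:105019784-105084577, minus strand), the mitochondrial formyltetrahydrofolate dehydrogenase, went the other way. It read 103, 77.7 and 93.3 in CD104high and 34.2, 61.7 and 35.9 in CD104low, with every CD104high library above every CD104low library. The log2 fold change was 1.08 ± 0.28 (SE; adjusted p = 0.0138 in limma), or 2.12-fold on the log2(value + 1) scale. The call ended without replicate 1 of CD104high (0.99, adjusted p = 0.059) and without replicate 1 of CD104low (0.93, 0.0577). ALDH1L2 had the lowest level per length of the 36 genes, at 12.1 and 5.82 scaled reads per kilobase of its longest annotated transcript in CD104high and CD104low. IMPDH2 had the highest on that scale, at 8704 and 10632.

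In the cytosol, MTHFD1, a trifunctional folate enzyme, fell by 0.23 (adjusted p = 0.0139 in limma), or by 0.42 after correction for length and GC, and leaving out replicate 1 of CD104low gave an adjusted p of 0.0528. SHMT1, the cytosolic serine hydroxymethyltransferase, was at 2314 ± 102 and 2225 ± 87.4 (SD, n = 3 each), with an interval of -0.10 to 0.22. PSAT1 (chr9:78297143-78330093, plus strand), the phosphoserine aminotransferase of serine synthesis, read 5681, 5586 and 5728 in CD104high and 9054, 7787 and 8784 in CD104low. It fell by 0.59 on the log2 scale (SE 0.07, adjusted p = 0.000519 in limma), and by 0.37 with the length and GC correction. PSPH, the phosphatase that completes serine, was at -0.17 with an interval of -0.48 to 0.15. PHGDH, which starts the serine route and is no member of the 36, read 279, 375 and 333 in CD104high and 348, 369 and 402 in CD104low and did not pass (adjusted p = 0.313 in limma).

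For 7 pairs of paralogs or partner subunits, the ratio within each library asked whether both moved by the same amount. CTPS1 over CTPS2 was 6.0, 6.29 and 4.92 in the CD104high libraries and 10.6, 11 and 8.95 in the CD104low libraries, a difference of -0.83 in the mean log2 ratio. SHMT1 over SHMT2 was 0.266, 0.249 and 0.258 in the CD104high libraries and 0.203, 0.198 and 0.189 in the others, a difference of 0.39. MTHFD1 over MTHFD1L was 3.79, 3.98 and 3.57 against 2.99, 3.07 and 3.11, a difference of 0.30. In these 3 pairs the populations did not overlap, and each had p = 0.1 in a two-sided exact permutation test, the smallest that 3 against 3 libraries allow (adjusted p = 0.233 over the 7 pairs). So cytosolic folate enzymes took a larger share of each folate pair in the CD104high libraries, though a permutation of 3 against 3 libraries cannot give a p under 0.1. The log2 ratios of PRPS1 over PRPS2, NME1 over NME2, RRM1 over RRM2 and IMPDH1 over IMPDH2 differed by -0.05, 0.04, 0.16 and 0.19, with overlap between populations and an exact permutation p of 0.3 to 0.8.

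**Figure D4:**
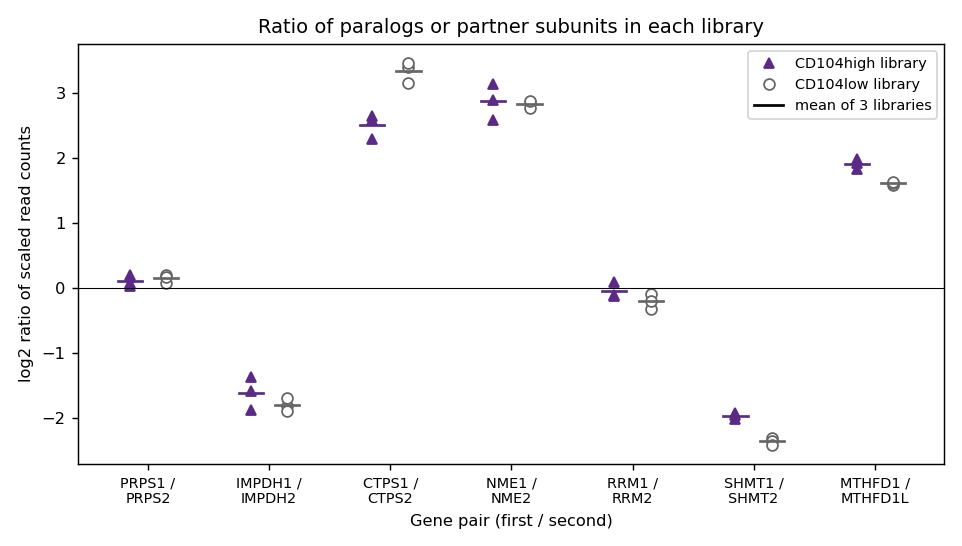
Log2 ratio of scaled read counts for 7 gene pairs in each library (triangles CD104high, open circles CD104low) with the mean of the 3 libraries as a bar. The populations are separate for CTPS1/CTPS2, SHMT1/SHMT2 and MTHFD1/MTHFD1L and overlap in the other 4 pairs.

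Promoter windows were read because 26 members fell together. MYC is a known activator of many nucleotide synthesis genes through the E-box CACGTG, E2F factors of S phase genes, and ATF4 of serine and folate genes. RefSeq windows of 300 bases, from 250 before to 50 after a start on GRCh38.p14, were at hand for 31 of the 36 genes (47 windows, since some genes have several starts). ADSL, ALDH1L2, IMPDH2, PSPH and SHMT2 were not among them. CACGTG was in at least 1 window of 7 of 31 genes (22.6%), where 8.77% of 27305 genes with windows held it. Those 27305 genes were not limited to the genes tested here. The 7 genes were ATIC, DHODH, MTHFD1, MTHFD1L, NME1, PAICS and PPAT, each of which fell. Of the 24 genes with windows that lacked it, 17 fell. The sites below show that shared motif, in capitals, within 30 bases on the strand of the gene. For PPAT and PAICS it is the same copy, read from the minus strand here.
ATIC, chr2:215312001-215312030: gggccggcgggcCACGTGataagcccggaa
DHODH, chr16:72008573-72008602: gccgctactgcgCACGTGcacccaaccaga
MTHFD1, chr14:64388326-64388355: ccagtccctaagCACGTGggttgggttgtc
MTHFD1L, chr6:150866320-150866349: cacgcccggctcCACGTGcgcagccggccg
NME1, chr17:51153579-51153608: caagtgctgcgaacCACGTGggtcccgggc
PPAT, chr4:56435780-56435809: aacggagatttcCACGTGcagcaaatacag

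The E2F motif TTTCCCGC was in windows of DUT, PRPS2 and TYMS (9.68% of the 31 genes, against 1.98% of all genes), and TTTGGCGC in windows of DUT and GART (6.45% against 0.795%). Both strands were searched, and a match on the opposite strand reads GCGGGAAA. DUT, TYMS and PRPS2 are shown because they hold such matches within 50 bases before a start; DUT and TYMS fell, and PRPS2 did not pass. The DUT stretches overlap each other by part of their length.
DUT, chr15:48332144-48332173: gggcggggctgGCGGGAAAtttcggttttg
DUT, chr15:48332159-48332188: gaaatttcggtTTTGGCGCgctccctgcgg
TYMS, chr18:657603-657632: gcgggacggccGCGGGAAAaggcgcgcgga
PRPS2, chrX:12791389-12791418: agccgccgcgcTTTCCCGCtcccgcagcag

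The composite site TGATGNAA, bound by ATF4 with C/EBP factors, was in windows of MTHFD1L alone among the 31 genes (3.23%, against 4.46% of all genes). MTHFD1L is shown because its E-box above lies beside it, in windows that start at nearby positions.
MTHFD1L, chr6:150866346-150866375: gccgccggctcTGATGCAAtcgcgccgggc
A match describes the letters and shows no binding, and no factor's binding was measured here.

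The factors themselves were measured as RNA. MYC read 5788, 5159 and 5173 in CD104high and 9180, 8032 and 8417 in CD104low (log2 fold change -0.67 ± 0.07 SE, adjusted p = 0.000449 in limma). ATF4 read 11276, 11699 and 12770 against 15032, 13191 and 15234 (log2 fold change -0.28 ± 0.08 SE, adjusted p = 0.0181 in limma). Of 8 tested regulators 4 fell and 0 rose, the others being E2F3 and TFAM, the mitochondrial transcription factor, which fell by 0.63. NFE2L2, at 0.17 (unadjusted p = 0.0371), was the only one higher at an unadjusted p under 0.05, and E2F2 was at 0.27 and did not pass. Of 12 ATF4 targets outside one-carbon metabolism 3 fell (25.0%, near the 21.6% of all genes) and 1 rose, with a median of -0.09. DDIT3, a stress transcription factor, fell by 0.83 and the cystine transporter SLC7A11 by 0.78, while DDIT4 rose by 0.41 and NUPR1 was at 0.69 without passing. Asparagine synthetase (ASNS), a textbook ATF4 target named after its value was seen, was at 42.7 ± 11.4 and 54.7 ± 6.64 (SD, n = 3 each) and did not pass.

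Genes of replication and proliferation moved in the same libraries. Of 15 such genes 9 fell (60.0%, against 21.6% of all genes) and 1 rose, with a median of -0.28. CCNE2, which encodes cyclin E2, fell by 0.75 and the replication factor GINS2 by 0.52. TOP2A, the topoisomerase of mitotic chromosomes, rose by 0.34, and the proliferation marker MKI67 was at 0.15 (adjusted p = 0.263 in limma). The part of cell cycle position in the fall of the enzymes was not tested.

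Genes of the same metabolism outside the 36 members are read against the 21.6% of all genes that fell and the 21.8% that rose. Of 20 other purine genes 7 fell (35.0%) and 6 rose, with a median log2 fold change of -0.06. PNP, the purine nucleoside phosphorylase, fell by 0.73. AK4, a mitochondrial adenylate kinase, rose by 0.62, and the AMP deaminase AMPD3 by 0.76. Of 22 other pyrimidine and deoxynucleotide genes 5 fell (22.7%, near the share of all genes) and 4 rose, with a median of -0.09. DCTPP1, which degrades surplus dCTP, fell by 0.87 and the nucleotidase NT5C3A by 0.44. TK2, the mitochondrial thymidine kinase, rose by 0.80, and CDA, the cytidine deaminase, by 1.35. Of 21 other folate and serine genes that could be tested 7 fell (33.3%) and 3 rose, with a median of -0.10. MTRR, which reactivates methionine synthase, fell by 0.69, and AHCY, which hydrolyses S-adenosylhomocysteine, by 0.53. MTR, the methionine synthase, rose by 0.40. ALDH1L1, the cytosolic counterpart of ALDH1L2 named after its value was seen, rose by 0.94, from 209 ± 53.7 to 393 ± 6.41 (SD, n = 3 each).

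Members differed in how much they varied within a population, and members of some chromosomes varied together. The 4 X-linked members PRPS1, PRPS2, HPRT1 and CTPS2 each had their lowest value in replicate 2 and their highest in replicate 3, in both populations. IMPDH1 and PSPH, on chromosome 7, had the same extremes. The coefficient of variation of PRPS1 was 14.5% in CD104high and 24.1% in CD104low, against 0.235% and 2.52% for IMPDH2. This held for the chromosomes as a whole. Over 445 X-linked genes tested, the median deviation from the population mean was -0.142 in replicate 2 and 0.161 in replicate 3 of CD104high, and -0.164 and 0.208 in those of CD104low (log2). Over 689 genes of chromosome 7 it was -0.136 and 0.132, and -0.107 and 0.089. The range over the 3 libraries was 0.303 and 0.372 for X, and 0.268 and 0.196 for chromosome 7, where the median over 22 autosomes was 0.039 and 0.037 in CD104high and CD104low. Chromosome 21, which holds GART, had the same extremes over 141 genes (-0.102 and 0.116 for CD104high, -0.041 and 0.038 for CD104low), with ranges of 0.218 and 0.078. Chromosome 22, which holds ADSL, had them too, with ranges of 0.055 and 0.14. On chromosome 4, which holds PPAT and PAICS, replicate 2 of CD104high was high (0.071) and replicate 3 low (-0.045). Its ranges were 0.116 and 0.013. Of the 9 members that did not pass, 5 lay on X or chromosome 7, which held 445 and 689 of the 14420 genes tested. HPRT1, also X-linked, passed, as did 43.4% of all genes tested. The part of this spread in the calls was not tested. With the replicate number as a further term in limma, PRPS1 and PRPS2 fell (adjusted p = 0.00296 and 0.00512) and CTPS2 rose (0.0412). IMPDH1 and PSPH did not pass in that fit either, and the labels do not say what the numbers mark. Other members off X and chromosome 7 varied as much or more, such as NME2 with a coefficient of variation of 22.3% in CD104high and ALDH1L2 with 35.0% in CD104low.

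**Figure D5:**
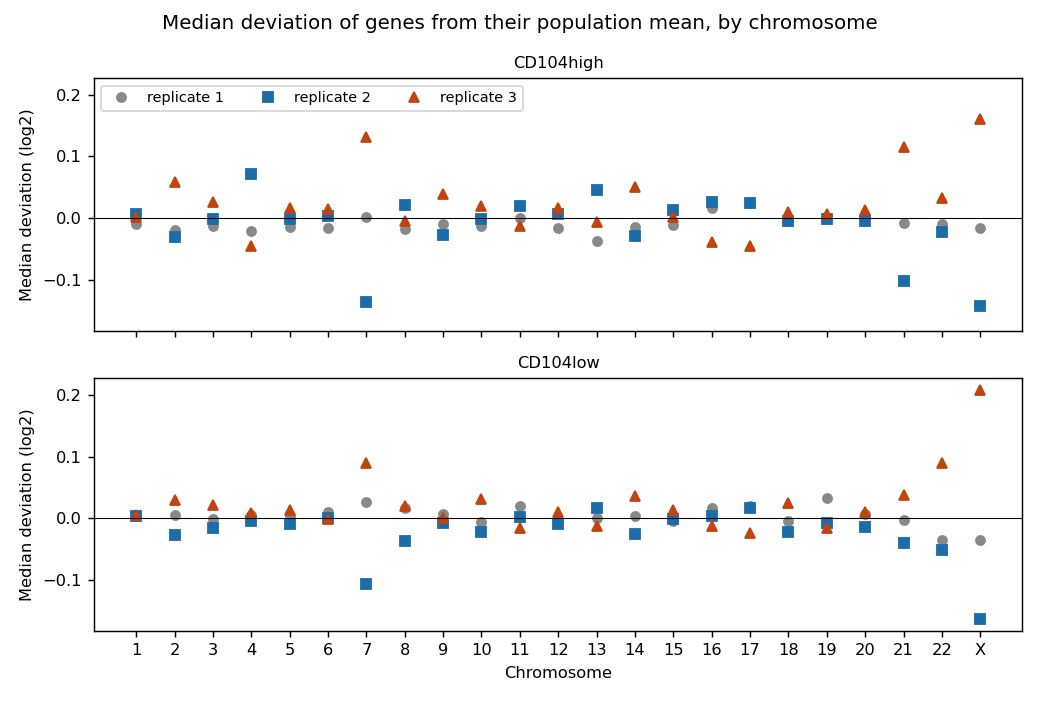
Median over the tested genes of each chromosome of the log2 deviation from the population mean, for the 3 replicates of CD104high (top) and CD104low (bottom). Replicate 2 is low and replicate 3 high on X and chromosome 7 in both populations, with ranges of 0.303 and 0.372 on X.

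Several members overlap another gene of the table on the opposite strand, and the sources used here do not say whether reads were counted by strand. GART overlaps SON, which was at 18230 in CD104high and 13760 in CD104low on average. TYMS overlaps ENOSF1 (1942 and 1727) and TYMSOS (169 and 260), and UCK2 overlaps TMCO1 (5206 and 7260). ALDH1L2, at 91.5 and 43.9, overlaps C12orf45, which was several times higher at 511 and 762 and differed in the opposite direction. ADSL, at 216 and 279, overlaps SGSM3 (55.0 and 58.9) on the same strand. Reads of these genes and of their partners may be shared.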

How the data were processed

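The table the authors deposited holds, per the file headers, 1 row per gene with its scaled read signal in the 6 libraries. Per the file headers it also gives the authors' log2 fold change, standard error, raw p-value and adjusted value. GRCh38 (hg38), DESeq2, FastQC and Salmon 1.3.0 are named in the submitters' processing notes, without roles; the sources used here state no annotation, filter or formula. Dividing each library by its step gave whole numbers within 0.01 for 100% of values; these recovered reads, estimates if Salmon made them, served the count alternatives only. The authors' adjusted p is empty for 292 genes.

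limma 3.58.1 (R 4.3.3) with an intensity trend was fitted on log2(value + 1), population as the only term, on 14420 genes that reached 10 in 3 or more libraries, with Benjamini-Hochberg adjustment over all of them. Fold changes on this scale understate those of low genes. Alternatives were a replicate block, pseudocounts of 0.5 and 5, no filter, a mean of at least 100, no trend, equal totals, quantile normalization, a spline correction for length and GC content of the longest GENCODE 29 transcript (99.8% of genes matched), edgeR 4.0.16, DESeq2 1.42.0 and leaving out each library. Scripts were tested on simulated data. Members and lists were chosen with earlier results of these data known. Per-library values are given for committed-step enzymes and the 4 smallest p of each branch, with the few others described; other lists name the 2 smallest p in each direction and MYC, ATF4 and PHGDH, apart from a few genes that are not reported here.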

Additional observations from a re-analysis of the deposited data

How the results depend on the processing

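Of the 27 called members, 17 kept direction and call in all 17 alternatives; the other 10 are PFAS, GART, GMPS, HPRT1, TYMS, RRM1, RRM2, CMPK1, MTHFD1 and ALDH1L2, whose values without single libraries stand in the report. The count of members that fell was 22 to 28 in the 11 alternatives with all libraries and 17 to 28 when 1 library was left out. The count that rose was 2 with the replicate block, 2 with the length and GC correction (ADSS2 beside ALDH1L2), 0 with the stricter filter, which removed ALDH1L2, and 0 to 1 when 1 library was left out. Among all tested genes 6257 changed, and 4101 to 6395 when 1 library was left out, the lowest without replicate 1 of CD104low. With the replicate block 7876 genes changed and 28 members fell, PRPS1 (adjusted p = 0.00296) and PRPS2 (0.00512) being added, and CTPS2 rose (0.0412). Same-numbered libraries correlated in their deviations at 0.0836, 0.359 and 0.324, and every library correlated best with its own number. The labels do not say whether the numbers mark pairs, and the main fit did not use them. For the 7 gene pairs a paired difference in log2 ratio equals the unpaired one by construction. Signs turned for CAD (-0.245) and CMPK1 (0.0286) with the length and GC correction and for ADSS2 (-0.00728) in edgeR; the cause was not tested. When 1 library was left out, ADSS2 ranged from -0.0255 to 0.0444, IMPDH1 from -0.213 to 0.0338, and the NME1/NME2 difference in log2 ratio from -0.0994 to 0.183. Rescaling to equal totals moved the median of all genes to 0.05 and that of the members to -0.29. ALDH1L2, NME2 and ADSL had the fewest reads of the members, and the part of depth in the calls was not tested.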
